A study of Danio rerio with 2 samples.

Results

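Oxidative phosphorylation is carried out by 5 protein complexes of the inner mitochondrial membrane. The genes for these complexes were examined in RNA-seq of 2 EGFP+ cell populations sorted from cd8a:EGFP reporter zebrafish. Genes were taken by symbol, as those starting with mt-nd, mt-co, mt-cyb, mt-atp, nduf (without ndufaf), sdha, sdhb, sdhc, sdhd, uqcr, cox4 to cox8 or atp5, which gave 113 of 32520 genes. They comprised 13 genes of the mitochondrial genome and 94 nuclear genes for subunits. The prefix sdha also took in 4 assembly factors of complex II, *sdhaf1* to *sdhaf4*, and the prefix atp5 took in 2 inhibitors of ATP synthase, *atp5if1a* and *atp5if1b*. These 6 genes were kept apart from the subunits. The rule leaves out *cyc1*, which encodes cytochrome c1 of complex III.

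One library was of EGFP+ myeloid cells from melanoma of Tg(cd8a:EGFP;BRAFV600E;p53null;nacrenull) zebrafish, 6 weeks post fertilization by the sample label, exposed to SB431542 for 24 h. SB431542 inhibits TGF-β receptors. These fish carry a human BRAF oncogene and lack p53 and the melanocyte regulator *mitfa*, which is given back in a vector to start the tumor. The other library was of lymphocytes from thymi of cd8a:EGFP zebrafish, labelled as 6 weeks post fertilization, untreated and positive for lck:mCherry as well as CD8:EGFP. The study's methods give another age for the thymus donors and do not mention lck:mCherry for this library. The groups therefore differed in cell type, tissue, tumor genotype and drug, and these cannot be told apart. EGFP is driven by the upstream region of cd8a in both, so each population is what this reporter marks. How many fish were pooled is not stated for either library. In bulk RNA, fewer cells of a type and less RNA per cell cannot be told apart.

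Complex I (NADH dehydrogenase) and complex II (succinate dehydrogenase) pass electrons to ubiquinone, complex III (cytochrome bc1) hands them to cytochrome c, and complex IV (cytochrome c oxidase) hands them to oxygen. Complexes I, III and IV pump protons, and complex V (ATP synthase) uses the gradient to make ATP. The mitochondrial genome encodes the central membrane subunits of complexes I, III, IV and V, and all of complex II is nuclear. The mitochondrial genes are transcribed from both strands as long RNAs that are cut apart, whereas each nuclear gene has its own promoter.

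Reads on genes numbered 39446435 in myeloid cells and 32975680 in thymus cells, and levels are given as reads per 1000000 of these (CPM). Each condition had 1 library, so no test between conditions was possible, the ratios compare these libraries only, and 95% exact intervals cover counting error only. Reads were not scaled for transcript length, so values are compared for the same gene or group between libraries, not between genes. Whether the ratios between libraries vary with transcript length was not tested. Subunits set apart by role below may also differ in length, and role and length cannot be told apart. The myeloid library was the deeper one and had 13405 genes without a read, against 9972 in thymus cells. The labelled cell types were checked against marker lists. All 11 phagocyte markers at 1 CPM or more in either library were higher in the myeloid library (3931 CPM summed over 19 gene IDs in myeloid cells, 44.3 CPM in thymus cells). Of these sums, *lgmn* alone held 2604 CPM in myeloid cells and 43.4 CPM in thymus cells, and 8 of the 19 IDs were below 1 CPM in both. Only 1 of the 11 markers reached 1 CPM in thymus cells, so the others could not count as lower. All 8 T cell markers were lower (4.36 CPM in myeloid cells, 835 CPM in thymus cells), with *lck*, *cd8b*, *cd28* and *cd247* at 0 reads in the myeloid library. Only 1 of these 8 reached 1 CPM in myeloid cells, so the others could not count as higher. The myeloid library also held 24478 CPM of 9 melanocyte marker genes, 16778 of them on 1 *tyrp1* gene, against 1.15 CPM in the thymus library. Of these markers 8 were higher and *oca2* was at 0. None of the 8 reached 1 CPM in thymus cells, so none could count as lower. The part of melanocyte RNA in the values below was not tested.

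Subunit genes took 3.14% of the reads on genes in myeloid cells and 1.74% in thymus cells, a 1.80-fold difference (95% interval 1.79 to 1.81). For the nuclear subunit genes the sum was 15747 CPM in myeloid cells and 6965 CPM in thymus cells, 2.26-fold higher in the myeloid library (2.25 to 2.27). For the mitochondrial genes it was 1.56% of the reads of myeloid cells, against 1.045% of those of thymus cells, or 1.49-fold higher (1.487 to 1.499). Both genomes thus took more of the myeloid reads, the nuclear genes by the wider margin. The mitochondrial share of subunit reads does not depend on library size, and it was 49.8% in myeloid cells (49.7 to 49.9) and 60.01% in thymus cells (59.9 to 60.1). Without *mt-co1* it was 40.2% in myeloid cells and 46.0% in thymus cells, so the lower share in the myeloid library remained.

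The 5 complexes differed in how far apart the libraries were. For nuclear subunits, complex IV genes summed to 2821 CPM in myeloid cells and 751 CPM in thymus cells (3.75-fold). Complex I genes summed to 4820 CPM in myeloid cells and 1883 CPM in thymus cells (2.56-fold), and complex V genes to 5562 CPM in myeloid cells and 2327 CPM in thymus cells (2.39-fold). Complexes III and II were closer between libraries, with 1530 CPM in myeloid cells and 1125 CPM in thymus cells for complex III (1.36-fold), and 1014 CPM in myeloid cells against 878 CPM in thymus cells for complex II (1.15-fold). Among nuclear subunit reads, complex IV thus made up 17.9% in myeloid cells and 10.8% in thymus cells, and complex II 6.44% in myeloid cells and 12.6% in thymus cells. For the mitochondrial subunits the order was another one. The only mitochondrial gene of complex III, *mt-cyb*, was 3.31-fold higher in the myeloid library. The 7 complex I genes summed to 950 CPM in myeloid cells and 610 CPM in thymus cells (1.56-fold). The 3 complex IV genes summed to 11858 CPM in myeloid cells and 8854 CPM in thymus cells (1.34-fold), and both complex V genes to 244 CPM in myeloid cells and 216 CPM in thymus cells (1.13-fold). The mitochondrial share of a complex's reads was therefore lower in the myeloid library for complex I (16.5% in myeloid cells, 24.5% in thymus cells), complex IV (80.8% in myeloid cells, 92.2% in thymus cells) and complex V (4.21% in myeloid cells, 8.48% in thymus cells). It was higher for complex III (62.5% in myeloid cells, 40.6% in thymus cells).

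**Figure D1:**
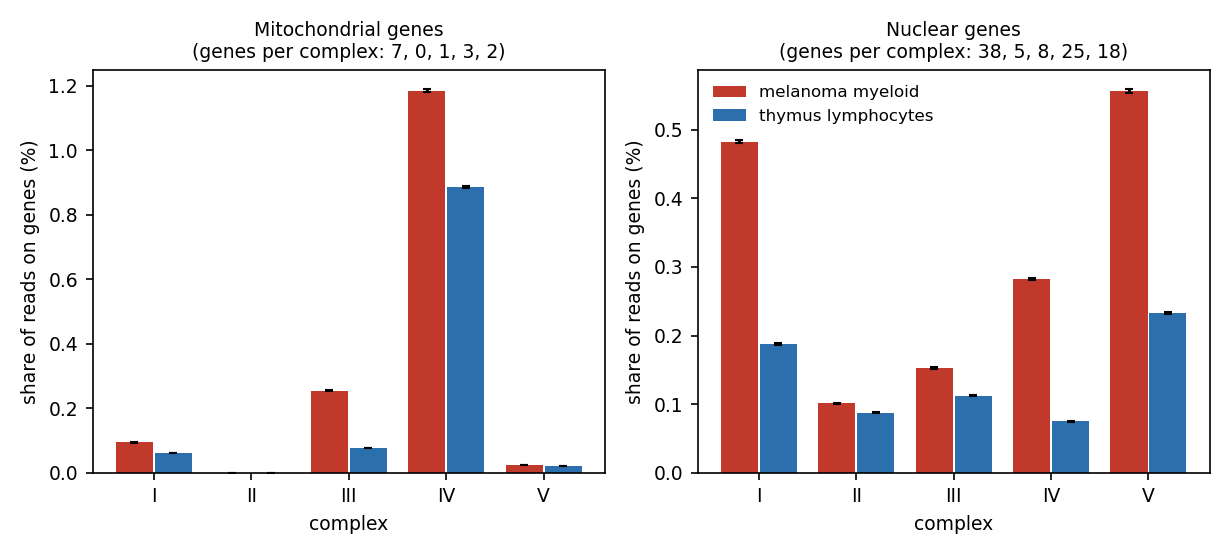
Share of reads on genes (%) taken by the mitochondrial (left panel) and nuclear (right panel, other scale) subunit genes of each complex, with 1 bar per library and 95% counting intervals. Nuclear complex IV genes reached 0.282% in myeloid cells and 0.0751% in thymus cells, while complex II genes stood at 0.101% in myeloid cells and 0.0878% in thymus cells and have no mitochondrial bar.

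Among single genes, a member counted as higher or lower when CPM + 1 differed at least 2-fold, and 107 of the 113 members had 1 CPM or more in either library. Of these, 64 were higher in the myeloid library, 6 were lower and 37 lay within 2-fold. Of all 15139 genes at this level, 28.6% were higher and 46.4% were lower in the myeloid library. The median log2 ratio (myeloid over thymus, on CPM + 1) was 1.32 over the 107 members, against −0.73 over all genes, so most members lay on the other side of the comparison from most genes. With edgeR TMM library sizes the median of all genes moved up by 0.61, to −0.11. The members then split into 77 higher and 3 lower, and all genes into 35.6% higher and 39.8% lower. DESeq2 size factors gave 76 higher and 3 lower members, beside 35% and 40.2% of all genes. Set against the median ratio of all genes, 80 members were higher and 2 were lower, beside 37.4% and 33.4% of all genes. At least 4-fold apart were 36 members that were higher and 1 that was lower, beside 17.8% and 29.6% of all genes. A minimum of 10 reads in both libraries left 103 members, 61 higher and 5 lower, beside 28% and 32.8% of 9937 genes. The share of all genes that were lower thus depends on genes with few reads in 1 library. Across all library sizes tried, 87 members kept a higher value in the myeloid library, 10 kept a lower one and 10 changed sign.

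Of the 13 mitochondrial genes, 4 were higher in the myeloid library by this measure (*mt-cyb*, *mt-nd1*, *mt-nd2* and *mt-nd6*), 2 were lower (*mt-atp8* and *mt-nd4l*) and 7 lay within 2-fold. The 30.8% that were higher stood close to the 28.6% of all genes, whereas the 15.4% that were lower stood below the 46.4% of all genes. With TMM or DESeq2 sizes the counts became 7 higher and 1 lower, beside 35.6% and 39.8% of all genes with TMM sizes. The median log2 ratio of the 13 genes was 0.58, against −0.73 over all genes. The 3 catalytic-core subunits of cytochrome c oxidase and cytochrome b took 92.3% of mitochondrial subunit reads in myeloid cells and 92.1% in thymus cells. The *mt-co1* gene, whose product holds the oxygen-binding site, had 5033 CPM in myeloid cells and 4506 CPM in thymus cells (1.12-fold), and ranked 11 by reads in myeloid cells and 5 in thymus cells. The *mt-co2* gene, for the subunit that receives electrons from cytochrome c, had 3065 CPM in myeloid cells against 2047 CPM in thymus cells (1.497-fold), and *mt-co3* had 3761 CPM in myeloid cells against 2301 CPM in thymus cells (1.63-fold). These 3 genes of 1 complex thus had unequal ratios in these libraries, with counting intervals that did not overlap. The intervals take each read as independent, although amplified copies were not marked by molecular identifiers. Whether the ratios differ beyond the spread between libraries was not tested.

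The *mt-cyb* gene, for cytochrome b, which carries the ubiquinone sites of complex III, had 2551 CPM in myeloid cells and 769.9 CPM in thymus cells. Its ratio of 3.31 (3.27 to 3.36) was above that of every other mitochondrial gene, and it ranked 31 by reads in myeloid cells and 116 in thymus cells. The genes *mt-nd1*, *mt-nd2* and *mt-nd4*, for proton-pumping and membrane-arm subunits of complex I, had 164, 170 and 279 CPM in the myeloid library, against 70.7, 73.9 and 142 CPM in the thymus library. The *mt-nd5* gene, which encodes the distal pump of the same arm, had 257 CPM in myeloid cells and 283 CPM in thymus cells, a log2 ratio of −0.14 that became 0.45 with TMM sizes. The ratios of the complex I genes of the mitochondrial genome thus spanned a wide range. The *mt-nd6* gene lies on the strand opposite to the others and had 70.9 CPM in myeloid cells and 25.9 CPM in thymus cells (2.73-fold, 2.53 to 2.95). Whether reads were counted by strand is not given in the sources used here, so its reads cannot be told apart from antisense RNA of the other strand.

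The 3 shortest genes had lower values in the myeloid library, *mt-nd3* not with every library size. *mt-atp8*, for a small membrane subunit of ATP synthase, had 57 reads in myeloid cells and 215 in thymus cells, 4.51-fold lower in CPM in the myeloid library (3.36 to 6.15). *mt-nd4l* had 122 reads in myeloid cells and 259 in thymus cells, 2.54-fold lower (2.04 to 3.18), and *mt-nd3* had 218 reads in myeloid cells and 236 in thymus cells, 1.29-fold lower (1.07 to 1.56), which turned to higher with TMM or DESeq2 sizes. In vertebrates *mt-atp8* overlaps *mt-atp6*, and *mt-nd4l* overlaps *mt-nd4*, so reads across the shared bases may be assigned to neither gene and both pairs are uncertain. The partner *mt-atp6*, for the proton channel of ATP synthase, had 243 CPM in myeloid cells and 209 CPM in thymus cells (1.16-fold). In genome order, neighbours could differ widely in the ratio of myeloid over thymus CPM, as *mt-atp8* and *mt-atp6* did. The ratios of *mt-nd6* and *mt-cyb* at the far end both stood above that of *mt-nd5* beside them.

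**Figure D2:**
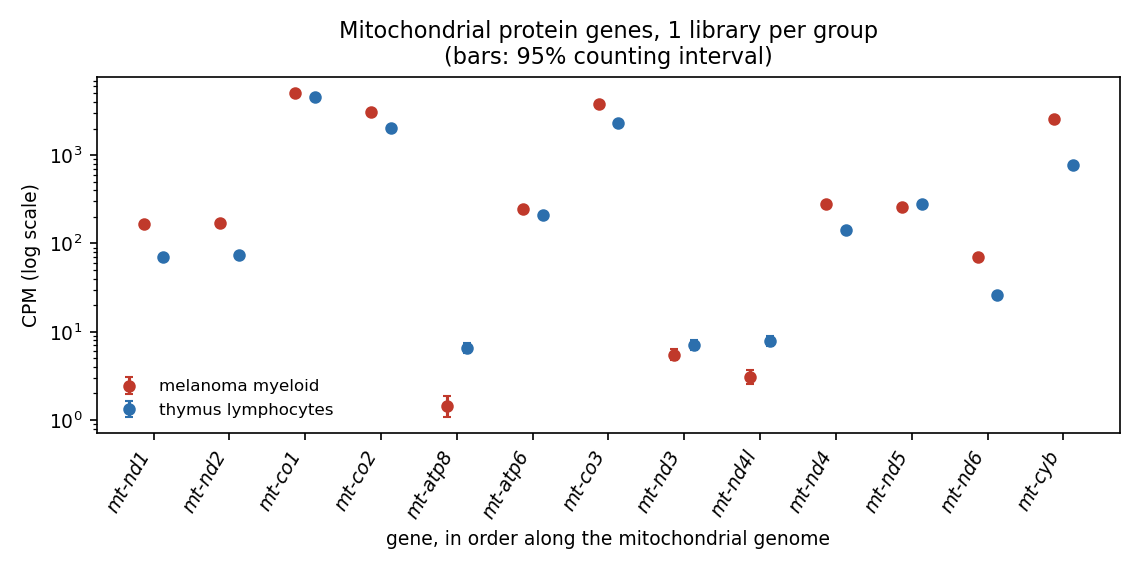
CPM (log axis) of the 13 mitochondrial genes in genome order, in the myeloid library and the thymus library, 1 point per library with bars for the 95% counting interval. The myeloid point lies above the thymus point for 9 genes and below it for mt-atp8, mt-nd3, mt-nd4l and mt-nd5, and the widest upward gap is at mt-cyb (2551 CPM in myeloid cells, 769.9 CPM in thymus cells).

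Nuclear complex I comprises 38 genes, of which 35 reached 1 CPM in either library. Of these, 25 (71.4%) were higher in the myeloid library, 2 (5.71%) were lower and the median log2 ratio was 1.49. The shares of all genes were 28.6% higher and 46.4% lower. The core subunits carry the flavin and the iron-sulfur clusters, and the accessory subunits surround them. Among 6 core genes at this level, 3 were higher and 1 was lower, with a median of 0.61, against 20 higher and 1 lower of 27 accessory genes, with a median of 1.76. The flavin-binding *ndufv1* had 255 CPM in myeloid cells and 282 CPM in thymus cells. Its values were nearly level, and their ratio changed sign with TMM or DESeq2 sizes. The core genes *ndufs3*, *ndufs7* and *ndufv2* had 350, 198 and 99.0 CPM in the myeloid library, against 120, 88.2 and 47.7 CPM in the thymus library.

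The core gene *ndufs8*, for a subunit that holds iron-sulfur clusters, stood apart from the rest of the complex. It had 5 reads in myeloid cells and 558 reads in thymus cells (0.127 CPM in myeloid cells, 16.9 CPM in thymus cells), 133-fold lower in the myeloid library by CPM (56.9 to 413). Among the 12932 genes at 1 CPM or more in the thymus library, 12.7% had 0 reads in the myeloid library, so near-absent genes were common there. A further core gene, *ndufs1*, had 0 reads in myeloid cells and 3 in thymus cells, and so was near 0 in both, although it encodes the largest subunit of complex I. The cause of either value was not tested.

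Accessory subunits of complex I included the widest differences in the other direction. *ndufb8* and *ndufb9*, for subunits of the membrane arm, had 786 and 533 CPM in myeloid cells, against 104 and 146 CPM in thymus cells (7.53-fold and 3.65-fold). *ndufs5* had 246 CPM in myeloid cells and 24.0 CPM in thymus cells (10.3-fold, 9.54 to 11.04). *ndufa1*, for a small membrane subunit, had 87.5 CPM in myeloid cells against 7.91 CPM in thymus cells (11.1-fold, 9.74 to 12.6). The acyl carrier genes *ndufab1* and *ndufab1b*, whose products also serve mitochondrial fatty acid synthesis, were alike, at 2.31-fold and 2.28-fold higher in the myeloid library. Against this trend, *ndufa9*, for a subunit at the junction of the arms, had 30.2 CPM in myeloid cells and 64.4 CPM in thymus cells. *ndufa10* had 48.2 CPM in myeloid cells against 63.8 CPM in thymus cells, but changed sign with TMM or DESeq2 sizes.

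Complex II had the smallest ratio of summed nuclear reads among the complexes. *sdha*, the flavoprotein that oxidizes succinate, had 404 CPM in myeloid cells and 405 CPM in thymus cells, a ratio of 0.996 (0.974 to 1.02). *sdhb*, the iron-sulfur subunit, had 368 CPM in myeloid cells and 349 CPM in thymus cells. The membrane anchors were further apart, with 94.9 CPM of *sdhc* in myeloid cells and 47.8 CPM in thymus cells (1.98-fold), and 147 CPM of 1 *sdhd* gene in myeloid cells against 76.7 CPM in thymus cells (1.92-fold). The other gene ID with the symbol *sdhd* had 0 reads in both. None of the 4 genes at 1 CPM or more passed 2-fold, and 2 did with TMM or DESeq2 sizes. The assembly factor *sdhaf4*, which acts on the flavoprotein, had 22.5 CPM in myeloid cells and 5.16 CPM in thymus cells, whereas *sdhaf2*, for the factor that helps attach the flavin, had 18.2 CPM in myeloid cells and 26.4 CPM in thymus cells. *sdhaf3* had 3.73 CPM in myeloid cells and 5.06 CPM in thymus cells. The log2 ratio of *sdhaf2* was −0.52, and became 0.04 with TMM and −0.003 with DESeq2 sizes. That of *sdhaf3* was −0.36, and became 0.11 and 0.08. The last of these factors, *sdhaf1*, had 1 read in myeloid cells and 26 in thymus cells.

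In complex III the large core subunits and the small subunits differed. *uqcrc1*, for a core protein, had 512 CPM in myeloid cells and 509 CPM in thymus cells, a ratio of 1.01 (0.986 to 1.03). The other core protein is encoded by *uqcrc2* and *uqcrc2a*, which had 149 and 56.6 CPM in myeloid cells, against 208 and 79.0 CPM in thymus cells. Both ratios were 0.72, so *uqcrc2* made up 72.5% of the pair's reads in each library, and both changed sign with TMM or DESeq2 sizes. The Rieske iron-sulfur protein gene *uqcrfs1* had 636 CPM in myeloid cells and 286 CPM in thymus cells (2.23-fold). Of the 4 small subunit genes 3 were higher in the myeloid library, beside 28.6% of all genes. *uqcrq* had 64.4 CPM in myeloid cells and 9.52 CPM in thymus cells (6.76-fold), and *uqcrh*, the hinge protein gene, had 84.4 CPM in myeloid cells and 21.0 CPM in thymus cells (4.02-fold). Over complexes I to III, the core genes were pooled as those of complex I with *sdha*, *sdhb*, *uqcrc1*, *uqcrc2*, *uqcrc2a* and *uqcrfs1*. The cytochrome c1 gene *cyc1*, left out by the rule, was not in this pool and had a log2 ratio of 0.84. The median thus depends on which genes were called core. The 12 core genes at 1 CPM or more had a median log2 ratio of 0.04 (0.62 with TMM). The 35 other nuclear subunit genes, *sdhc* and *sdhd* among them, had one of 1.59, which was not calculated with TMM. Role and transcript length cannot be told apart in this contrast.

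Complex IV showed the widest difference among nuclear subunits, with a median log2 ratio of 2.24. Of 24 genes at 1 CPM or more, 17 were higher in the myeloid library and 1 was lower. Beside this, 28.6% of all genes were higher and 46.4% were lower. All 24 reached 1 CPM in myeloid cells and 19 did in thymus cells. The others passed the minimum through the myeloid library alone, so they could not count as lower. The nuclear subunits of this complex surround the mitochondrial core, and several have paralogs that in mammals are used in different tissues. *cox5b*, for a zinc-binding subunit, had 466 CPM in myeloid cells and 123 CPM in thymus cells for its gene ID with most reads (3.78-fold). *cox7a2*, *cox7c* and *cox6b1* had 281, 274 and 261 CPM in myeloid cells, against 56.3, 58.8 and 22.4 CPM in thymus cells (4.99-fold, 4.66-fold and 11.7-fold). The subunit 5a genes were nearer to level, with 50.7 CPM of *cox5a* and 152 CPM of *cox5aa* in myeloid cells, against 36.3 and 103 CPM in thymus cells.

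Paralogs split by library. *cox4i1*, the form of subunit 4 used in most mammalian tissues, had 66.0 CPM in myeloid cells and 53.3 CPM in thymus cells (1.24-fold). *cox4i1l* had 2472 reads in myeloid cells and 7 in thymus cells, and *cox4i2*, which in mammals is known from lung and low-oxygen settings, had 1160 reads in myeloid cells and 10 in thymus cells. Their ratios in CPM were 295 (143 to 735) and 97.0 (52.5 to 203). *cox4i1* thus took 41.8% of the reads of its set in myeloid cells (40.5 to 43.0) and 99.0% in thymus cells (98.5 to 99.4). *cox8b* had 629 reads in myeloid cells and 0 in thymus cells, at least 175-fold higher when set against 3 reads, while *cox8a* had 18.5 CPM in myeloid cells and 12.4 CPM in thymus cells. In mammals the COX8B form is known from heart and skeletal muscle, and COX8A from most tissues.

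Further gene IDs with the symbols *cox5b* and *cox6a1* were likewise higher in the myeloid library, whereas those of *cox7a2* and *sdhd* were not. One *cox5b* gene (ENSDARG00000068738) had 2193 reads in myeloid cells and 13 in thymus cells (141-fold, 82.3 to 265), and another (ENSDARG00000113254) had 154 reads in myeloid cells and 0 in thymus cells (at least 42.9-fold). The *cox5b* gene with most reads took 88.7% of the reads of the symbol in myeloid cells and 99.7% in thymus cells. One *cox6a1* gene (ENSDARG00000022438) had 133 CPM in myeloid cells and 60.01 CPM in thymus cells, and the other (ENSDARG00000054588) had 31.4 CPM in myeloid cells and 1.33 CPM in thymus cells (23.6-fold). *cox7a1*, the heart and skeletal muscle form in mammals, had 34.9 CPM in myeloid cells and 2.27 CPM in thymus cells (15.3-fold, 12.2 to 19.6). The second *cox7a2* gene ID had 62 reads in myeloid cells and 100 in thymus cells, and *cox7a2l*, whose product helps join complexes III and IV, had 196 CPM in myeloid cells and 32.8 CPM in thymus cells (5.99-fold). Reads of near-identical copies may be shared out or dropped by the counting, so the values of genes that share a symbol are uncertain.

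Of 4 muscle marker genes found, 2 were higher in the myeloid library along with these paralogs, and the others were not. The creatine kinase genes *ckma* and *ckmb* had 474 and 304 CPM in myeloid cells, against 4.55 and 9.16 CPM in thymus cells. The list summed to 778 CPM in myeloid cells and 15.98 CPM in thymus cells. Another defining muscle gene, *atp2a1*, the calcium pump of fast fibres, had 2 reads in myeloid cells and 4 in thymus cells, and *mybphb* had 4 reads in myeloid cells and 71 in thymus cells. Keratinocyte markers summed to 408 CPM in myeloid cells and 51.2 CPM in thymus cells over 6 genes, with 4 higher, 1 lower and 1 at 0 in both. The lower one was *tp63*, a defining regulator of these cells, with 30 reads in myeloid cells and 1074 in thymus cells. Their part in the paralog values, as that of the 24478 CPM of melanocyte markers, was not tested. Without *cox4i1l*, *cox4i2*, *cox7a1* and *cox8b* the median log2 ratio of all nuclear subunit genes was 1.40, against 1.49 with them. The further *cox5b* and *cox6a1* genes stayed in. A median over this many genes moves little when 4 are left out, so it does not measure the part of other cells.

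The *ndufa4* genes, named for complex I and known in mammals as a subunit of complex IV, also split. *ndufa4* had 226 CPM in myeloid cells and 45.5 CPM in thymus cells (4.95-fold), and *ndufa4b* had 12.8 CPM in myeloid cells and 35.1 CPM in thymus cells, 2.75-fold lower in the myeloid library (2.47 to 3.05). *ndufa4l2* had 52 reads in myeloid cells and 101 in thymus cells. *ndufa4* therefore took 94.1% of the reads of its set in myeloid cells and 54.3% in thymus cells. *cox6b2* had 172 CPM in myeloid cells and 48.8 CPM in thymus cells (3.53-fold). For *cox6b1* and *cox6b2* the balance turned, with *cox6b1* at 60.2% of the pair's reads in myeloid cells and 31.5% in thymus cells. For *cox5a* and *cox5aa* it was kept, *cox5aa* taking 75.02% in myeloid cells and 73.9% in thymus cells.

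**Figure D3:**
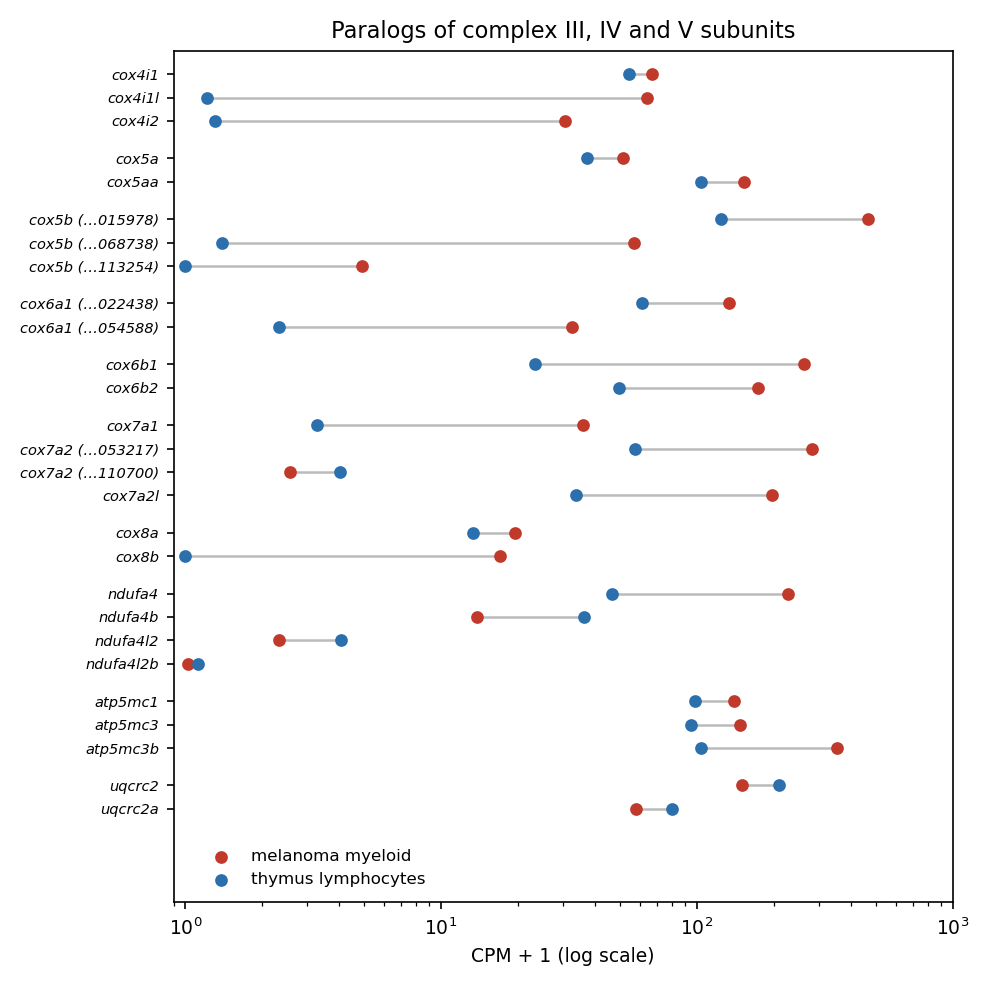
CPM + 1 (log axis) of paralogs of complex III, IV and V subunits, grouped by set, with the myeloid library and the thymus library as 1 point each, joined by a line. The longest lines mark cox4i1l, cox4i2, cox8b, the cox5b gene ENSDARG00000068738 and the further cox6a1 gene, whose thymus points lie near the left edge. Those of cox4i1, cox5a and cox8a are short.

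In ATP synthase, the head and the stalk differed. The F1 head is built of alternating alpha and beta subunits around a turning gamma subunit. *atp5f1b*, for the catalytic beta subunit, had 509 CPM in myeloid cells and 883 CPM in thymus cells, 1.74-fold lower in the myeloid library, and ranked 315 by reads in myeloid cells and 89 in thymus cells. *atp5f1a*, for the alpha subunit, had 50.8 CPM in myeloid cells and 171 CPM in thymus cells, 3.37-fold lower in the myeloid library (3.20 to 3.55). Both kept a lower value in the myeloid library under every library size tried. The log2 ratio of *atp5f1b* was −0.79, and shrank to −0.21 with TMM and −0.26 with DESeq2 sizes. That of *atp5f1a* was −1.73, and became −1.16 and −1.20. The gamma subunit gene *atp5f1c*, in contrast, had 1333 CPM in myeloid cells and 326 CPM in thymus cells (4.09-fold). *atp5f1d* and *atp5f1e*, for the small subunits below it, had 69.7 and 96.9 CPM in myeloid cells, against 65.4 and 12.3 CPM in thymus cells. Genes of the same head thus lay on both sides of level.

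The nuclear genes of the peripheral stalk and the membrane part, unlike the mitochondrial *mt-atp8*, lay on 1 side. Of these 10 genes 9 were higher in the myeloid library, beside 28.6% of all genes, and their median log2 ratio was 2.33. *atp5pb*, for the stalk's b subunit, had 1450 CPM in myeloid cells and 171 CPM in thymus cells (8.49-fold, 8.26 to 8.72), and *atp5po*, whose product ties the stalk to the head, had 867 CPM in myeloid cells and 267 CPM in thymus cells (3.24-fold). The exception was *atp5pd*, with 45.4 CPM in myeloid cells and 35.3 CPM in thymus cells. The c-ring is encoded by 3 genes for the same ring subunit. Of these, *atp5mc1* had 138 CPM in myeloid cells and 97.6 CPM in thymus cells, and *atp5mc3* had 146 CPM in myeloid cells and 93.9 CPM in thymus cells. *atp5mc3b* had 353 CPM in myeloid cells and 103 CPM in thymus cells. *atp5mc3b* made up 55.3% of their reads in myeloid cells and 34.9% in thymus cells. The inhibitor *atp5if1a*, whose product blocks the reverse reaction of the enzyme, had 142 CPM in myeloid cells and 31.3 CPM in thymus cells (4.53-fold), and *atp5if1b* had 149 CPM in myeloid cells and 83.6 CPM in thymus cells (1.78-fold).

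**Figure D4:**
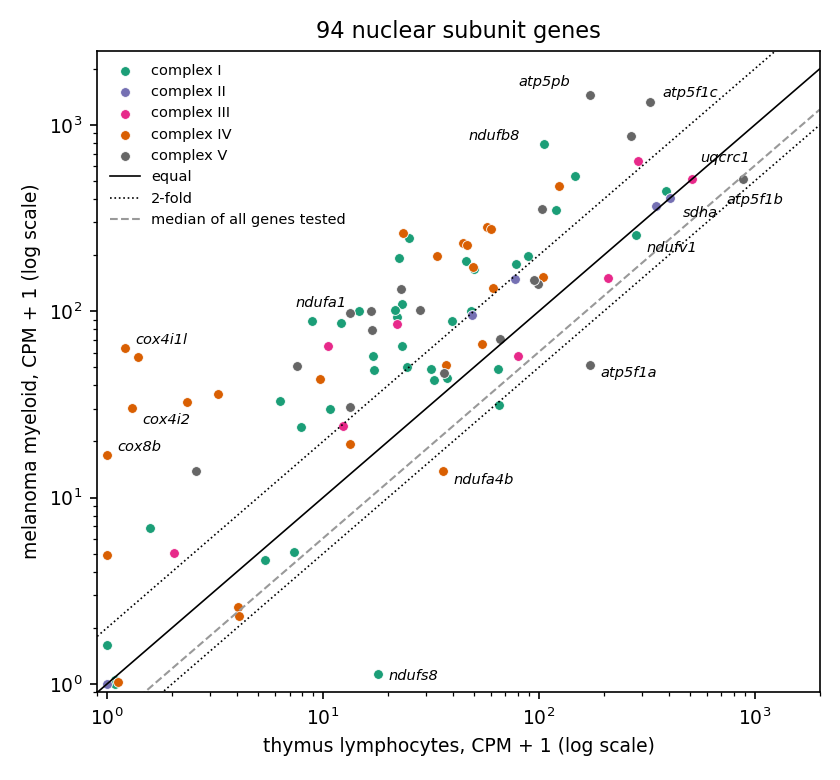
CPM + 1 of the 94 nuclear subunit genes in the myeloid library (vertical, log axis) against the thymus library (horizontal, log axis), coloured by complex, with lines for equal values, for 2-fold and for the median ratio of all genes tested. Most points lie above the line of equal values, sdha and uqcrc1 lie on it, and ndufs8, atp5f1a, ndufa4b and, by a small margin, ndufa9 lie below the lower 2-fold line.

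**Figure D5:**
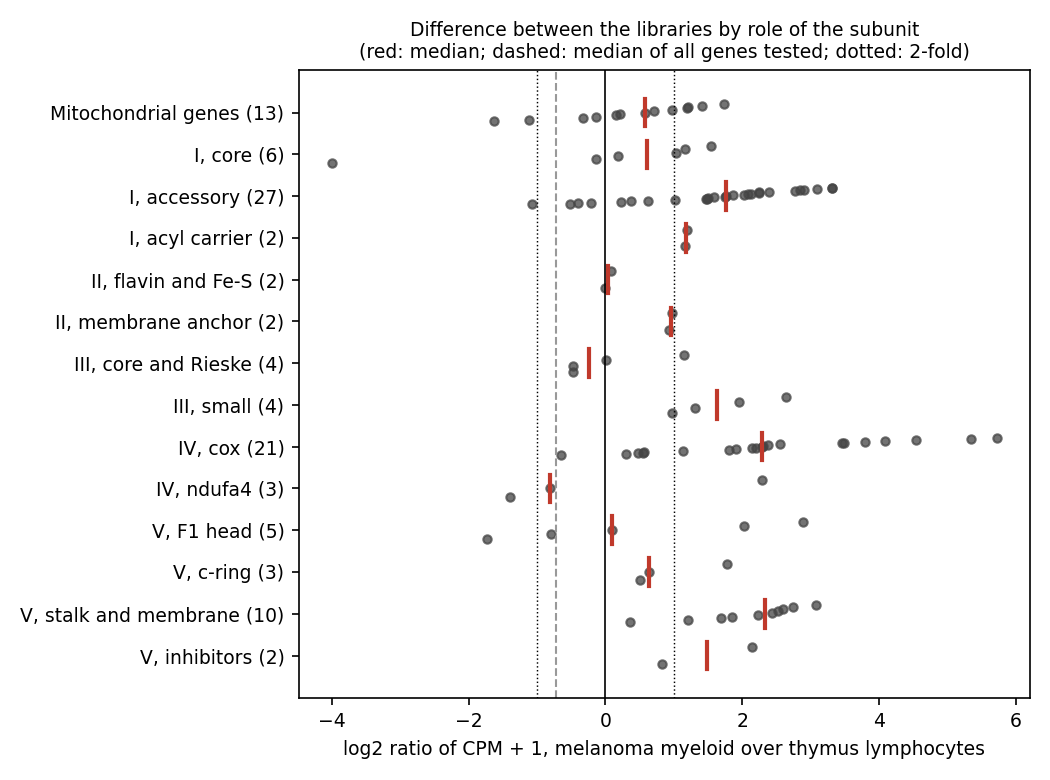
Log2 ratio of CPM + 1 (myeloid over thymus) of each subunit and inhibitor gene at 1 CPM or more in either library, in rows by complex and role, with the median of each row. Rows for complex IV cox genes (median 2.29) and the ATP synthase stalk and membrane part (2.33) lie to the right, and those for the complex II flavin and iron-sulfur subunits (0.04) and the ATP synthase head (0.09) lie near 0.

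The order of the genes by reads was partly shared. Over the 94 nuclear subunit genes, log values in the libraries had a Pearson correlation of 0.80, and over the 13 mitochondrial genes one of 0.97, given as descriptions across genes that share libraries and length bias. Of the 500 genes with most reads, 4 were mitochondrial and 12 nuclear members in myeloid cells, against 4 mitochondrial and 4 nuclear members in thymus cells. Of the 6 members below 1 CPM in both libraries, *ndufb4* had 24 reads in myeloid cells and 0 in thymus cells, *ndufa9b* had 2 reads in myeloid cells and 3 in thymus cells, *ndufa4l2b* had 1 read in myeloid cells and 4 in thymus cells, and *ndufs1*, *sdhaf1* and 1 *sdhd* gene were given above.

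Other mitochondrial gene groups did not all follow the subunits. Cytochrome c, the carrier between complexes III and IV, is encoded by *cycsb*, which had 1559 CPM in myeloid cells and 170 CPM in thymus cells (9.16-fold), and *cyc1* had 400 CPM in myeloid cells and 224 CPM in thymus cells. Of 44 assembly factor genes above the same minimum, 16 (36.4%) were higher in the myeloid library and 7 (15.9%) were lower. Their median log2 ratio was 0.32. Beside them, 28.6% of all genes were higher and 46.4% were lower, with a median of −0.73. With TMM sizes the values of all genes were 35.6%, 39.8% and −0.11. The factor with the most reads in the myeloid library, *timmdc1*, which acts on the membrane arm of complex I, had 289 CPM there and 56.0 CPM in the thymus library, and *acad9*, another complex I factor, had 1 read in myeloid cells and 3741 in thymus cells. Of 18 citrate cycle genes, which include the pyruvate dehydrogenase genes, 2 (11.1%) were higher and 5 (27.8%) were lower, with a median of −0.17. Both shares lay below those of all genes, and the median lay above theirs. With TMM sizes 4 were higher and 1 was lower, and the median turned to 0.40 (0.35 with DESeq2 sizes). *suclg1* had 524 CPM in myeloid cells and 77.8 CPM in thymus cells, and *ogdha* had 7.99 CPM in myeloid cells and 247 CPM in thymus cells. They encode a subunit of succinyl-CoA ligase and one of oxoglutarate dehydrogenase. Mitochondrial ribosome genes had a median of 0.40, above that of all genes. Of 75 genes 20 were higher, a share of 26.7% against 28.6% of all genes. Only 6 were lower, a share of 8% against 46.4% of all genes. With TMM sizes 37 of the 75 were higher, beside 35.6% of all genes, and the median was 0.96.

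Of the genes that copy and control the mitochondrial genome, 12 of 16 were lower in the myeloid library and 1 was higher, with a median log2 ratio of −2.15 (−1.76 with TMM). Most genes lay on this side too, with 46.4% of all genes lower and a median of −0.73 (39.8% lower with TMM). Each of the 16 control genes reached 1 CPM in thymus cells, but only 10 did in myeloid cells. The rest met the minimum through the thymus library alone. They could not count as higher, and both the count of 12 and the median include them. The mitochondrial RNA polymerase gene *polrmt* had 0 reads in myeloid cells and 1551 in thymus cells, at least 618-fold lower when set against 3 reads. The transcription and packaging factor gene *tfam* had 28.8 CPM in myeloid cells and 41.0 CPM in thymus cells, and *gabpa*, for a regulator of nuclear respiratory genes, had 98.3 CPM in myeloid cells and 202 CPM in thymus cells. The only gene of the list above 2-fold was *slirp*, for an RNA-binding protein that stabilizes mitochondrial messengers, with 78.3 CPM in myeloid cells and 17.4 CPM in thymus cells. Cytosolic ribosome genes, for comparison, summed to 13225 CPM in myeloid cells and 7536 CPM in thymus cells. Of 82 genes at 1 CPM or more, 40 (48.8%) were higher and none lower, with a median of 0.99. With TMM sizes 67 were higher and the median was 1.57. Of all genes, 28.6% were higher and 46.4% were lower, or 35.6% and 39.8% with TMM sizes.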

How the data were processed

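Cells were sorted, cDNA was amplified from little RNA with a SMART-Seq kit for ultra-low input, which adds no molecular identifiers, and sequencing libraries were prepared with Nextera XT. Counts of reads for each Ensembl gene, not normalized, were deposited by the authors. The submitters' processing notes name cutadapt, STAR, HTSeq and GRCz11, whereas the study's methods name TopHat, GRCz10 and FPKM values from Cufflinks, so the aligner and build are uncertain. Strand and overlap settings of the counting are not given in the sources used here. Amplification can lose rare transcripts, and counts favour long ones. In the thymus table, 5 summary rows held 28.4% of its reads, of which 6966482 were not unique, and were left out. The myeloid table held none. Symbols were matched to 29201 of 32520 gene IDs. Among the members, 4 symbols were shared by 9 IDs. Mitochondrial gene order came from the RefSeq gene table of another build, used without coordinates.

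CPM, shares with Clopper-Pearson intervals and exact conditional intervals of ratios were calculated with scipy 1.17.1, pandas 2.3.3 and numpy 2.4.6 under Python 3.11.15, and figures were drawn with matplotlib 3.10.9. Log2 ratios used a pseudocount of 1 CPM, which understates the difference for genes of few reads. A gene at 0 reads was set against 3 reads, which equal 0.0761 CPM in myeloid cells and 0.0910 CPM in thymus cells. Other library sizes came from edgeR 4.0.16 (TMM) and DESeq2 1.42.0 in R 4.3.3, used for scaling only. The calculation was tested on simulated counts. Other settings were totals that left out the 10 most read genes of either library or the mitochondrial reads, and a pseudocount of 0.1 CPM. A minimum of 10 reads in both libraries, IDs summed by symbol, limits of 1.5-fold and 4-fold, and ratios set against the median of all genes were also used. Counting *ndufa4* genes with complex I and leaving out 4 paralogs were added after the data were seen. The grouping of subunits by role was not among the planned results.

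Named were all mitochondrial members, per nuclear complex the 2 genes with most CPM in each library, the 6 highest and 6 lowest log2 ratios, paralog sets, genes nearly absent in 1 library, and up to 4 genes of each further list. Further members, and *acad9*, *ogdha*, *polrmt*, *slirp* and *tfam*, were named after their values were seen. One gene that the rule names is not reported here. Members, the 7 pathway lists and the 7 marker lists were chosen with earlier results of these data known. Neutrophil markers (832 CPM in the myeloid library, 506 CPM in the thymus one, where 373 were on 1 *lect2* gene that was lower in the myeloid library while the other 5 were higher) and erythrocyte markers (18.6 CPM in the myeloid library, 0.273 in the thymus library) completed the marker lists, and no gene matched the list of mitochondrial RNAs other than messengers. Intervals cover counting error only.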

Additional observations from a re-analysis of the deposited data

How the results depend on the processing

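The summed and median ratios of the mitochondrial and of the nuclear genes kept their direction under the settings given here, while 10 of 107 single members and the median of the citrate cycle genes changed sign. The log2 ratio of summed mitochondrial CPM was 0.58, and became 1.16 with TMM, 1.11 with DESeq2 and 0.66 without the 10 genes with most reads. That of summed nuclear CPM was 1.18, and became 1.76, 1.71 and 1.26 with the same settings, 1.18 without mitochondrial reads and 1.16 without the 4 paralogs *cox4i1l*, *cox4i2*, *cox7a1* and *cox8b*. The mitochondrial median of 0.58 became 1.16 with TMM, 1.12 with DESeq2 and 0.66 without the 10 genes, and the nuclear median of 1.49 became 2.05 with TMM, 2.01 with DESeq2 and 1.40 without the 4 paralogs. The count of 6 members lower in the myeloid library became 3 with TMM, 3 with DESeq2, 1 at 4-fold and 2 against the median of all genes, and the count of 64 higher became 36 at 4-fold. Without *mt-co1* the mitochondrial share of subunit reads was 40.2% in myeloid cells and 46.0% in thymus cells. With *ndufa4* genes counted in complex I, its nuclear genes had 5060 CPM in myeloid cells and 1967 CPM in thymus cells, and those of complex IV had 2581 CPM in myeloid cells and 667 CPM in thymus cells. TMM and DESeq2 sizes moved the median ratio of all genes by 0.61 and 0.56, and the other library sizes by at most 0.06. Of the values recomputed, 24 stayed within their limits and 25 moved.

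Division of reads by coding length was not run, since no lengths were at hand, and the summed mitochondrial ratio has no value without mitochondrial reads. No paired analysis was possible because the groups held 1 library each, and for the same reason no replicate was left out. Depth limits genes such as *ndufs1*, *ndufa9b* and *ndufa4l2b*, at 4 reads or fewer in both libraries.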
